A study of Populus davidiana with 6 samples.

Results

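Head-to-head gene pairs are neighbours that lie on opposite strands with their 5' ends facing each other, so that the left gene is read leftward and the right gene rightward from the stretch between them. In leaves of the aspen Populus davidiana, 341 such pairs were taken from the loci listed in the deposited expression tables. A pair had the left locus on the minus strand, the right locus on the plus strand, no other locus between them in order of start position, and a right start 1 to 1000 bases past the left end. Both loci carried a reference identifier beginning POPTR_ and spanned at least 1000 and under 15000 bases, as 27407 of the 40537 loci in the tables did. The 341 pairs held 682 different loci, since a locus can stand in only 1 head-to-head pair. For comparison, 1099 adjacent pairs on the same strand and 1539 tail-to-tail pairs, whose 3' ends face each other, met the same criteria. In 18 of the 341 head-to-head pairs a locus that starts earlier reached into the stretch between the partners, and these pairs were kept. Another locus overlapped 13.2% of head-to-head loci, 8.76% of same-strand loci and 5.72% of tail-to-tail loci.

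The plants were of the cultivar Palgong1, classed as drought sensitive in the labels, at the seedling stage and about 6 weeks old, and had been propagated by internode culture on a sugar-containing medium with an added auxin. For the drought treatment of the labels, plants were taken out of the medium, rinsed and kept in the open, without medium, for some 10 min (air-dried); control plants formed the other group. Each group gave 3 leaf samples, and all 6 shared the genotype, age and culture. The labels say neither how control plants were handled nor whether each sample is a different plant. The p-values therefore set group differences against the spread of these samples only, and that spread may be technical.

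In a head-to-head pair the stretch between the start sites can serve as a promoter for both genes, and plants, animals and yeasts all have genes arranged in this way. Where a promoter works in both directions, its partners can share open chromatin and factor binding, yet each start site also has core elements of its own. Joint response of such partners to a stimulus is therefore a common question about the arrangement. Here the comparison asked whether partners changed together in air-dried leaves, relative to same-strand neighbours at the same distances. The tables give no gene names, so the loci are called by identifier and position, no role is given to any of them, and the leaf label was not checked against marker genes. Locus ends stand in for start sites and come from the authors' transcript models; for the coordinates, no genome build is named in the sources used here.

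Values are FPKM, a fragment count divided by transcript length and by the library's size, summed over the transcripts of a locus. Depth per sample is unknown. Control replicate 1 stood apart: over all 22835 tested loci it correlated at 0.607 to 0.657 with any other sample, while the other samples correlated at 0.864 to 0.941 with each other (across loci). Over the 514 tested loci of head-to-head pairs it was 0.943 to 0.955, against 0.969 to 0.991. It listed 144 of the 682 members at 0, against 107 to 120 in the other samples, and its FPKM summed over the members was 25448, against 16388 to 22281. The median of the 514 tested members, at 14.9 FPKM, lay within the 14.4 to 15.1 FPKM of the other samples. Its FPKM summed over all loci was 343937047, against 1648879 to 10915459.

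At short distance, loci of head-to-head pairs were more often expressed than loci of same-strand and tail-to-tail pairs, both singly and as pairs. A locus was tested where its mean over the 6 samples was at least 1 FPKM. Both loci reached this level in 204 of 341 head-to-head pairs (59.8%), against 535 of 1099 same-strand pairs (48.7%) and 830 of 1539 tail-to-tail pairs (53.9%). Within 250 bases the share was 82.9% of 70 head-to-head pairs, 50.6% of 89 same-strand pairs and 58.8% of 376 tail-to-tail pairs. Farther apart the head-to-head share was 60.2% above 250 and up to 500 bases, 54.5% up to 750 bases and 48.0% up to 1000 bases. Same-strand pairs stayed between 46.6% and 50.6% in all 4 classes. The share of single loci expressed moved in the same way. Within 250 bases it was 90.7% for head-to-head, 66.3% for same-strand and 76.2% for tail-to-tail loci, and above 750 bases it was 69%, 67.3% and 68.4%. Whether partners were expressed together more often than their single shares give was not tested.

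The gap in the share of pairs at short distance was present in every sample taken alone. Of head-to-head pairs within 250 bases, 80.0% in control replicate 1, 81.4% in air-dried replicate 1 and 82.9% in each of the other 4 samples had both loci at 1 FPKM or more. The lowest and highest sample gave 44.9% and 51.7% for same-strand pairs and 57.2% and 59.6% for tail-to-tail pairs. The distance classes and this comparison were chosen after the data were seen, and the difference between orientations was not tested. A revised identifier here is one that ends in .r and a number, taken to mark a transcript model that the authors changed. The share of pairs whose loci both carried one moved with the share of pairs expressed. That share was 61.4% of head-to-head pairs within 250 bases and 41.0% above 750 bases, and 44.9% of same-strand pairs within 250 bases. Among pairs with at least 1 unrevised locus, both loci were expressed in 59.3% of 27 head-to-head pairs within 250 bases and in 15.3% of 59 above 750 bases. The same-strand values for such pairs were 24.5% of 49 and 25% of 256. Where both loci were revised, the head-to-head share was 97.7%, 92.1%, 92.1% and 95.1% from the nearest to the farthest class, with no steady course with distance. Same-strand pairs with both loci revised lay between 82.5% and 93.4%. Revision of a model, and the locus ends that set the distance, may themselves depend on expression in these samples. This was not tested, so the split does not separate revision or distance from expression. Counting only transcripts marked as known, the shares within 250 bases were 47.1% for head-to-head, 26.97% for same-strand and 38.8% for tail-to-tail pairs, in the same order as with all transcripts and lower by over 1.5 times in each orientation.

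**Figure D1:**
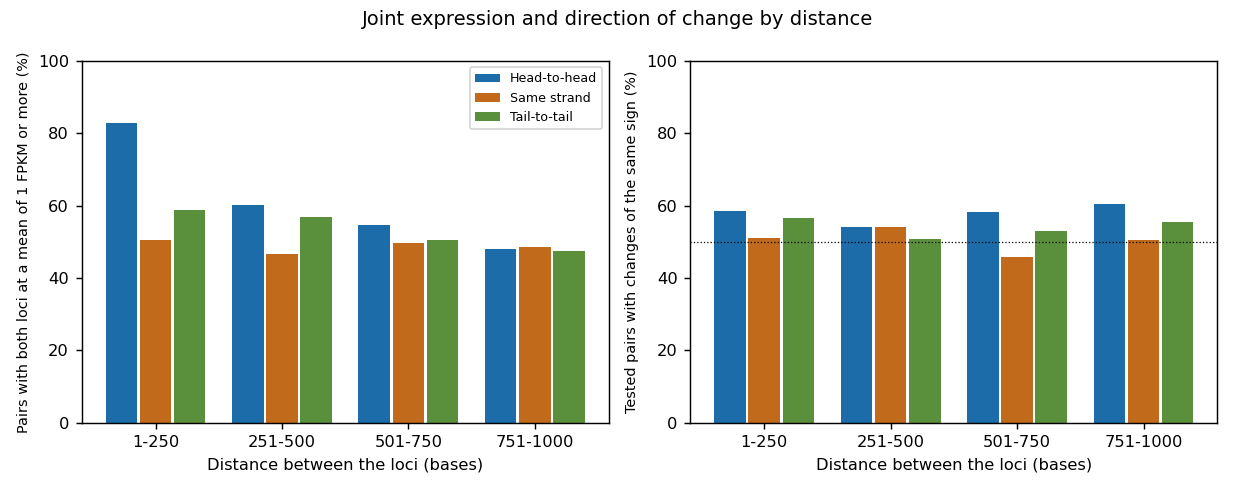
Share of adjacent pairs with both loci at a mean of 1 FPKM or more (left, % of all pairs) and share of tested pairs whose log2 fold changes had the same sign (right, %), by distance in bases. Bars are the 3 orientations; head-to-head pairs within 250 bases stand at 82.9% on the left, against 50.6% and 58.8%, while on the right all bars lie between 45.8% and 60.4%.

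The other head-to-head pairs were expressed on 1 side or neither. In 106 pairs only 1 locus reached a mean of 1 FPKM, and in 51 of these the partner was listed at 0 in all 6 samples. In 31 pairs neither locus reached it, and in 16 of those both were listed at 0 throughout. An exact 0 in these tables can be a failed estimate, so these loci are described only as listed at 0. The strongest of these 1-sided pairs joined POPTR_0002s07390.r1, on the minus strand of chromosome 2 (5064013 to 5065204), to POPTR_0002s07400, listed at 0. The former stood at 2070, 1526 and 443 FPKM in control replicates 1 to 3 while air-dried replicates 1 to 3 gave 1804, 702 and 605 FPKM. Replicate 1 was the highest of its group in both, and the groups overlapped. Pairs lay on all 19 numbered chromosomes, from 3 on chromosome 11 to 30 on chromosome 5, and 4 lay on other sequences.

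Where both loci were expressed, their levels were loosely related. The lower locus of the 204 pairs had a median of 9.49 FPKM and the higher a median of 25.7 FPKM. The higher stood above the lower by a median factor of 2.63 (quartiles 1.60 and 6.05), against 3.70 (1.74 and 9.22) in same-strand and 3.20 (1.71 and 7.83) in tail-to-tail pairs. Ratios of at least 10 occurred in 30 head-to-head pairs (14.7%), against 22.4% and 20.1% of pairs of the other two orientations. The left locus was the higher in 105 pairs and the right in 99. Across the 204 pairs, Pearson's r between the log2 mean FPKM of the loci was 0.17 and Spearman's rho 0.15; for same-strand pairs they were -0.09 and -0.08. These correlations run across pairs within the same libraries and are given as descriptions.

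**Figure D2:**
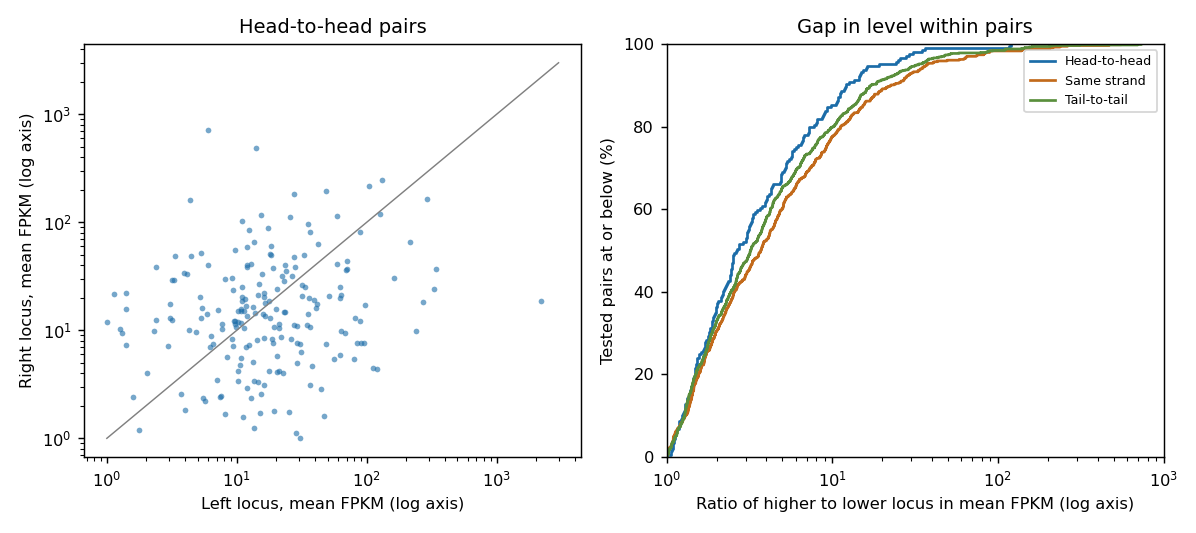
Left, mean FPKM over 6 samples of the left and right locus of each of the 204 tested head-to-head pairs (both axes log), with the line of equal level. Right, cumulative share of tested pairs (%) by the ratio of the higher to the lower locus (log axis) for the 3 orientations; the head-to-head curve reaches 50% at a ratio of 2.63, before the same-strand curve at 3.70.

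Some pairs joined abundant partners. The pair with the highest level in its lower locus was POPTR_0013s02740.r1 and POPTR_0013s02750.r1, 308 bases apart on chromosome 13 (1647668 to 1650170 minus, 1650478 to 1654121 plus). The left locus stood at 242, 288 and 247 FPKM in control and at 332, 328 and 314 FPKM in air-dried leaves. The right locus stood at 162, 162 and 144 FPKM in control and at 167, 165 and 183 FPKM in air-dried leaves. All 3 air-dried values lay above all 3 control values in both loci, and neither passed the test (limma log2 fold changes 0.33 and 0.14, SE 0.10 and 0.09, adjusted p = 0.129 and 0.405). On chromosome 9, POPTR_0009s07020.r1 and POPTR_0009s07030, 739 bases apart, were nearly level, at 128 and 120 FPKM over all samples. The groups did not overlap in either, and the signs were opposite (log2 fold changes 0.12 and -0.37, limma adjusted p = 0.445 and 0.127). A locus that starts earlier and ends past the left locus also reaches into the stretch between them. On chromosome 17, POPTR_0017s13830.r1 ranged from 64.0 to 241 FPKM within the control group alone, while its partner POPTR_0017s13840.r1, 963 bases away, stayed between 226 and 266 FPKM in it. The most abundant member, POPTR_0005s25420.r1 on chromosome 5, averaged 2183 FPKM and its partner POPTR_0005s25430 lay between 12.4 and 21.99 FPKM in every sample.

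Pairs that nearly touched were no exception to these loose relations. POPTR_0001s27630.r1 and POPTR_0001s27640.r1 on chromosome 1 (26507500 to 26510783 minus, 26510806 to 26512593 plus) were 23 bases apart, the least among tested pairs. The left locus stood at 27.2, 27.4 and 22.9 FPKM in control and 26.01, 24.9 and 25.6 FPKM in air-dried leaves. The right locus, at 98.1 to 131 FPKM, was 4.36 times as abundant over all samples, and the groups overlapped in both. POPTR_0006s23250.r1 and POPTR_0006s23260 on chromosome 6 were 25 bases apart. The left locus averaged 8.20 ± 1.36 FPKM in control leaves and 5.87 ± 0.52 FPKM after air drying (SD, n = 3 each), and the right 4.01 ± 1.38 and 2.99 ± 0.53 FPKM. Neither passed the test (limma adjusted p = 0.150 and 0.492). POPTR_0002s08670.r1 and POPTR_0002s08680 on chromosome 2 were 26 bases apart. The left locus had 16.9 to 18.6 FPKM in control and 21.4 to 23.5 FPKM in air-dried leaves without overlap (log2 fold change 0.31, SE 0.07, adjusted p = 0.069 by limma), and the right locus overlapped between the groups.

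Few loci of head-to-head pairs passed the test for change in air-dried leaves. By limma on log2(FPKM + 1), 9 of 514 tested loci (1.75%) passed a Benjamini-Hochberg adjusted p of 0.05, where 6.78% of all tested loci did. Rises numbered 4 and falls 5, where 4.16% of all tested loci rose and 2.61% fell. The share was 5.13% of 1443 loci in same-strand pairs, 6.22% of 2235 loci in tail-to-tail pairs and 7.33% of all 17435 tested loci in the same span range. Without control replicate 1 it was 8 of 512 (1.56%), against 7.43% of all loci. Without a correction for multiple testing, 74 head-to-head loci (14.4%) had p under 0.05, against 22.0% of all loci. The groups did not overlap in 120 (23.3%), against 30.4% of all loci. Under each of the 18 alternatives run, the head-to-head share called was below that of all loci. The difference between these shares was not tested.

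The sizes of change followed the same order. The median absolute log2 fold change was 0.13 in head-to-head loci (quartiles 0.07 and 0.25), 0.16 in same-strand loci, 0.17 in tail-to-tail loci and 0.18 in all loci of the span range. Only 4 of 514 head-to-head loci (0.78%) reached a 2-fold difference on this scale, against 3.40% of the loci of the span range. The spread between replicates was similar, with a median SD of 0.16 in head-to-head loci, 0.15 in same-strand loci and 0.16 in the span range, on the log2 scale. Levels were similar too, at a median of 14.99 FPKM against 12.8 FPKM in the span range. Head-to-head loci more often had a revised identifier, 66.9% against 54.0% of the span range. Among tested loci with a revised identifier, 1.59% of 440 head-to-head loci were called, against 6.13% of 13643 in the span range. With an unrevised identifier, 2 of 74 (2.70%) were called, against 11.7% of 3792.

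**Figure D3:**
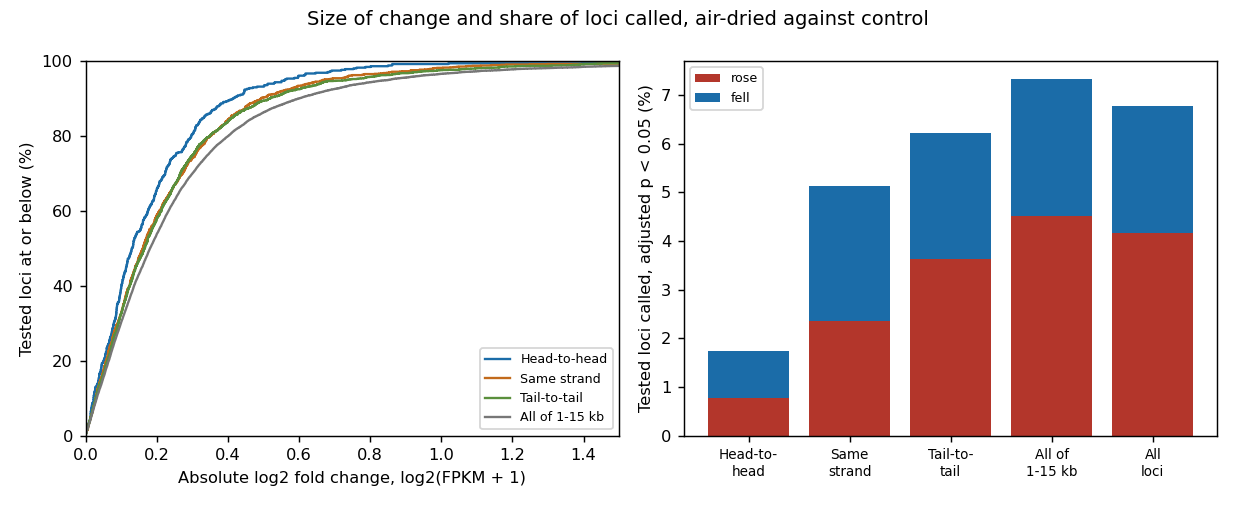
Left, cumulative share of tested loci (%) by absolute log2 fold change on log2(FPKM + 1), for loci in head-to-head, same-strand and tail-to-tail pairs and for all loci of at least 1000 and under 15000 bases. Right, share of tested loci called as rises or falls (%, limma adjusted p under 0.05); head-to-head loci stand at 1.75% and all loci at 6.78%.

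The largest called change was a rise on chromosome 16. POPTR_0016s00600.r1 (205583 to 206585, plus strand, 3 transcripts) stood at 32.5, 30.6 and 32.3 FPKM in control and at 87.4, 77.5 and 91.3 FPKM in air-dried leaves. Every air-dried sample lay above 2 times any control sample, and the rise was 2.69-fold (log2 fold change 1.40, SE 0.08, adjusted p = 0.00175 by limma). Its partner POPTR_0016s00590 (203146 to 204646, minus strand, 937 bases away) stood at 10.51, 14.1 and 9.77 FPKM in control and at 12.6, 10.8 and 13.9 FPKM in air-dried leaves. These overlapped, with a log2 fold change of 0.11 (SE 0.16, adjusted p = 0.731). The call for POPTR_0016s00600.r1 held under all 14 alternatives run on it.

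The 1 pair in which both loci were called moved in opposite directions. On chromosome 12, POPTR_0012s10830.r1 (11526406 to 11537424, minus) rose from 13.2, 13.5 and 13.9 FPKM in control to 17.1, 17.1 and 17.0 FPKM in air-dried leaves. Its partner POPTR_0012s10840.r1 (11538210 to 11543415, plus, 786 bases away) fell from 135, 129 and 137 FPKM to 97.2, 106 and 104 FPKM. Both changes were small, with log2 fold changes of 0.31 (SE 0.06) and -0.39 (SE 0.07) and limma adjusted p of 0.0383 and 0.0331. Each call ended without any one of the 6 samples, with adjusted p of 0.0535 to 0.170 for the rise and 0.0629 to 0.138 for the fall, and the signs were kept. With known transcripts only, POPTR_0012s10830.r1 had the opposite sign (-1.003 on the log2 scale), and limma's adjusted p was then 0.569, the highest of its alternatives, which began at 0.0373.

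The 3 further falls with the largest change each had a partner that was not called. POPTR_0007s00870 on chromosome 7 (440535 to 442942, plus) stood at 9.07, 8.98 and 9.36 FPKM in control and at 4.91, 5.21 and 5.73 FPKM in air-dried leaves. It fell to 0.578 of its control mean (log2 fold change -0.69, SE 0.08, adjusted p = 0.0108 by limma). Its partner POPTR_0007s00860, 881 bases away, started from a like level, at 9.98, 10.8 and 9.11 FPKM, and stood at 8.80, 8.13 and 9.15 FPKM in air-dried leaves, with overlap (log2 fold change -0.17, adjusted p = 0.332). The difference between these partners did not pass its own test (log2 0.52, SE 0.16, limma adjusted p = 0.121). POPTR_0017s04880.r1 on chromosome 17 (3752298 to 3755884, plus) fell from 22.7, 21.1 and 21.8 FPKM to 13.3, 14.6 and 14.8 FPKM (log2 fold change -0.59, SE 0.07, adjusted p = 0.0112 by limma). Its partner POPTR_0017s04870.r1, 347 bases away, had 18.7, 16.6 and 16.0 FPKM in control and 16.7, 14.8 and 16.0 FPKM in air-dried leaves, with overlap (adjusted p = 0.549). POPTR_0005s01370.r1 on chromosome 5 (914180 to 917259, minus) fell from 211, 195 and 167 FPKM to 135, 133 and 131 FPKM (log2 fold change -0.51, SE 0.10, adjusted p = 0.0493 by limma). Its partner POPTR_0005s01380.r1, 744 bases away, overlapped between the groups, with 29.9 to 35.2 FPKM in control and 23.3 to 32.7 FPKM in air-dried leaves. Another locus reaches into the stretch between these partners. The call for POPTR_0007s00870 ended without control replicate 2 or air-dried replicate 1 or 2 (adjusted p = 0.0520 to 0.0718), and that for POPTR_0017s04880.r1 without any one air-dried replicate (0.0510 to 0.0687). The call for POPTR_0005s01370.r1 ended without control replicate 1 or 2 or any one air-dried replicate (0.0717 to 0.192).

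The remaining calls were small. POPTR_0013s15740.r1 on chromosome 13 (15639112 to 15642380, plus) fell from 39.6, 47.0 and 43.1 FPKM to 31.4, 31.2 and 31.7 FPKM (log2 fold change -0.45, SE 0.08, adjusted p = 0.0342 by limma). Its partner POPTR_0013s15730.r1, 91 bases away and 9.08 times as abundant, stood at 346, 349 and 371 FPKM in control and at 321, 319 and 327 FPKM in air-dried leaves. The groups did not overlap there either, but the partner did not pass (log2 fold change -0.14, adjusted p = 0.363). POPTR_0012s13780.r1 on chromosome 12 (13786873 to 13789742, minus) rose from 52.6, 51.1 and 52.6 FPKM to 64.7, 67.0 and 65.3 FPKM (log2 fold change 0.33, SE 0.05, adjusted p = 0.0280 by limma). Its partner POPTR_0012s13790.r1, 55 bases away, had 104, 102 and 112 FPKM in control and 122.9, 125 and 121 FPKM in air-dried leaves, also without overlap and in the same direction (log2 fold change 0.21, adjusted p = 0.137). The ninth call belonged to a 1-sided pair: POPTR_0013s02970 rose from 22.2, 22.5 and 21.3 FPKM to 27.6, 31.7 and 31.8 FPKM (limma adjusted p = 0.0332), next to POPTR_0013s02960, listed at 0. The calls for POPTR_0013s15740.r1 and POPTR_0012s13780.r1 ended without control replicate 2 or 3 or any one air-dried replicate (adjusted p = 0.0928 to 0.156 and 0.0767 to 0.155). That for POPTR_0013s02970 ended without any one control replicate or air-dried replicate 2 or 3 (0.0574 to 0.155).

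**Figure D4:**
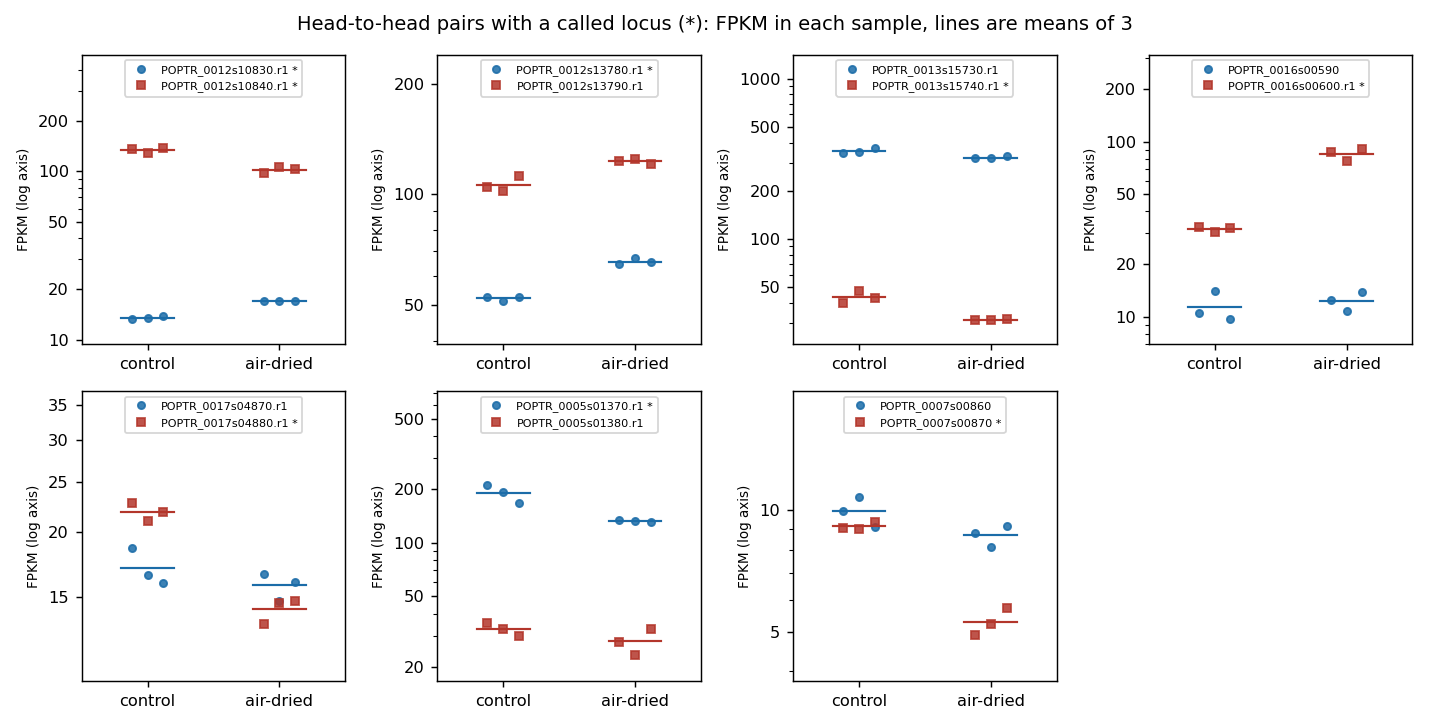
FPKM (log axes) in each control and air-dried sample for the 7 head-to-head pairs with both loci tested and at least 1 called; circles are left loci, squares right loci, short lines the means of 3 samples, and asterisks mark called loci. The rise of POPTR_0016s00600.r1 to 77.5 FPKM or more stands beside a partner that stays between 9.77 and 14.1 FPKM.

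Over all distances, head-to-head partners more often had log2 fold changes of the same sign than same-strand neighbours. Above 250 and up to 500 bases they did not, and the difference was not tested. At least 1 locus was called in 3.43% of tested head-to-head, 8.785% of same-strand and 11.45% of tail-to-tail pairs. Among the 7 such head-to-head pairs, 6 had log2 fold changes of the same sign. Of such same-strand pairs 28 of 47 did, and of tail-to-tail pairs 60 of 95. In each of the 6 only 1 locus was called, and its partner's limma adjusted p lay between 0.137 and 0.731. The 7 pairs were selected by their calls, so the count of 6 does not show joint change. Among the 204 tested head-to-head pairs, 0 had both loci rise, 0 had both fall and 1 had them change in opposite directions, by limma. At an unadjusted p under 0.05, both loci passed in 6 head-to-head pairs (2.94%), where 3.95% of all tested pairs did, with both higher in 1 and both lower in 3. The groups did not overlap at both loci in 16 pairs (7.84%), where 8.73% of all tested pairs had this, and 11 of the 16 had the same sign, against 25 of 40 same-strand pairs. Among 535 same-strand pairs both fell in 2, and among 830 tail-to-tail pairs both fell in 1; both rose in 0 of either. With size ignored, 118 head-to-head pairs (57.8%) had log2 fold changes of the same sign, 55 of them both positive and 63 both negative. Same-strand pairs, weighted to the head-to-head distances in classes of 100 bases, gave 51.1%, and tail-to-tail pairs, weighted in the same way, 53.2%. In the 4 distance classes, from the nearest to the farthest, head-to-head pairs gave 58.6%, 54%, 58.3% and 60.4%. Same-strand pairs gave 51.1%, 54.1%, 45.8% and 50.5% there. Each air-dried replicate set alone against the control mean gave 55.9%, 55.4% and 52.5% for head-to-head pairs and 50.8%, 50.7% and 51.9% for same-strand pairs. Without control replicate 1 the shares were 54.2% and 49.0%. The head-to-head share was the higher in all 17 alternatives, which drew on the same 6 samples and are not independent. The replicate block left both shares unchanged, since each number occurs once in each group.

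The sizes of change were weakly related within pairs. Across the 204 head-to-head pairs, Pearson's r between the log2 fold changes of the loci was 0.13 and Spearman's rho 0.14. For 535 same-strand pairs they were 0.10 and 0.01, and for 830 tail-to-tail pairs 0.09 and 0.06. Both loci of a pair are measured in the same libraries, so sample differences can enter both. Pearson's r for head-to-head pairs was 0.17 without control replicate 1. It was 0.08, 0.08 and 0.09 without control replicate 2, control replicate 3 and air-dried replicate 1. In pairs with no other locus overlapping either member it was 0.04, below the 0.08 of such same-strand pairs. The head-to-head r showed no steady course with distance, at 0.20, 0.15, -0.06 and 0.23 from the nearest to the farthest class. Same-strand pairs gave 0.17, 0.19, 0.07 and 0.01 in the same classes. Changes of some size in both loci were rare. Both exceeded 0.25 on the log2 scale in 10 of 204 head-to-head pairs, in the same direction in 6. Of 535 same-strand pairs 58 did so, 30 in the same direction, and of 830 tail-to-tail pairs 99, 57 in the same direction. Both exceeded 0.5 in 1 head-to-head pair, POPTR_0003s07570.r1 and POPTR_0003s07580.r1. In same-strand and in tail-to-tail pairs 7 each did so, 6 of them in the same direction. Within the groups, the deviations of head-to-head partners from the group mean were hardly correlated across pairs. Pearson's r ran from -0.05 to 0.04 over the 6 samples, and Spearman's rho from -0.10 to 0.05. For same-strand pairs r ran from -0.15 to 0.03 and for tail-to-tail pairs from -0.01 to 0.08. Whether the loci of a single pair vary together was not tested.

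**Figure D5:**
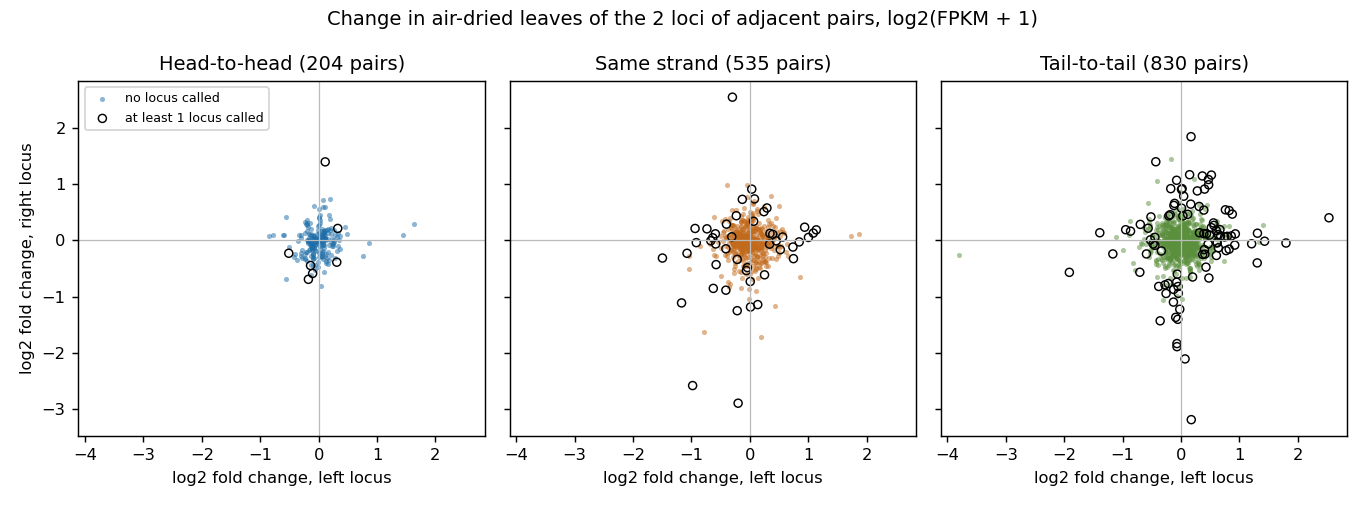
Log2 fold change of the right locus against that of the left, air-dried against control on log2(FPKM + 1), for the tested pairs of each orientation; open circles have at least 1 called locus. In head-to-head pairs most points lie near 0. Of the 7 pairs with a called locus, 6 have log2 fold changes of the same sign, each with only 1 locus called.

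A test on each pair as a unit found few changes. The mean of the log2 values of the loci changed in 8 of 204 head-to-head pairs (3.92%), where 7.07% of all 1569 tested pairs did, by limma with adjustment over the pairs of all 3 orientations. Of these 8, 3 rose and 5 fell, and 5 held a called locus described above. Among these 5, the chromosome 16 pair kept its call without any one sample (adjusted p up to 0.0409), and the other 4 each lost it without several samples, with adjusted p up to 0.154, 0.144, 0.144 and 0.103 for the pairs of POPTR_0012s13780.r1, POPTR_0013s15740.r1, POPTR_0017s04880.r1 and POPTR_0007s00870. The other 3 joined loci that were not called on their own. POPTR_0015s05730.r2 and POPTR_0015s05740.r1, 112 bases apart on chromosome 15 (6084086 to 6085237 minus, 6085349 to 6086352 plus), had the largest mean change (log2 0.96, SE 0.16, limma adjusted p = 0.0140). The left locus stood at 0.782, 3.76 and 2.69 FPKM in control and at 11.3, 7.04 and 8.38 FPKM in air-dried leaves. The right locus stood at 2.63, 1.68 and 1.39 FPKM in control and at 2.69, 2.42 and 2.43 FPKM in air-dried leaves. Only the left locus separated the groups, although without passing its own test (log2 fold change 1.63, SE 0.40, adjusted p = 0.0805). The pair's call ended without any one air-dried replicate (adjusted p = 0.0560 to 0.0740).

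Both loci had lower values in the other two such pairs. POPTR_0003s07570.r1 and POPTR_0003s07580.r1, 429 bases apart on chromosome 3 (9129524 to 9138315 minus, 9138744 to 9140216 plus), had a mean change of -0.62 on the log2 scale (SE 0.14, limma adjusted p = 0.0448). The left locus stood at 16.7, 20.7 and 15.1 FPKM in control and at 14.8, 10.4 and 9.78 FPKM in air-dried leaves. The right locus stood at 4.50, 5.18 and 3.42 FPKM in control and at 2.30, 1.81 and 2.92 FPKM in air-dried leaves. The groups did not overlap in either locus, and the 2 log2 fold changes, -0.56 and -0.68, were close. POPTR_0004s19760.r1 and POPTR_0004s19770.r1, 233 bases apart on chromosome 4, had a mean change of -0.28 (SE 0.07, limma adjusted p = 0.0445). The left locus had 12.3 to 14.7 FPKM in control and 10.9 to 12.6 FPKM in air-dried leaves, with overlap. The right locus had 40.5 to 53.9 and 34.6 to 36.1 FPKM, without overlap. The chromosome 3 call ended without any one sample other than control replicate 3 (adjusted p = 0.0641 to 0.168), and the chromosome 4 call without any one of the 6 (0.0614 to 0.150).

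The difference between partners seldom passed its test. The difference between the log2 values of the loci changed in 2 head-to-head pairs (0.98%), where 4.72% of all tested pairs did, by the same test. The share was 4.49% in same-strand and 5.78% in tail-to-tail pairs. These 2 were the chromosome 16 pair, in which POPTR_0016s00600.r1 gained 1.28 on POPTR_0016s00590 on the log2 scale (SE 0.17, limma adjusted p = 0.0122), and the opposed chromosome 12 pair, with POPTR_0012s10830.r1 gaining 0.70 on POPTR_0012s10840.r1 (SE 0.11, adjusted p = 0.0158). Both ended without any one air-dried replicate (adjusted p = 0.0592 to 0.0776 and 0.0702 to 0.0881), and the second also without control replicate 2 (0.0626). Unadjusted p was under 0.05 in 22 head-to-head pairs (10.8%), 21.3% of same-strand and 24.3% of tail-to-tail pairs. The median absolute difference between the changes of partners was 0.19 in head-to-head, 0.27 in same-strand and 0.26 in tail-to-tail pairs, on the log2 scale, and these were not tested against each other. Single loci also changed less in head-to-head pairs, with a median absolute log2 fold change of 0.13 against 0.16 and 0.17. Whether partners differed less than their single changes give was not tested.

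At the edges of the rule, the pair farthest apart inside the limit, POPTR_0009s15450 and POPTR_0009s15460.r1 at 999 bases, had means of 0 and 7.90 FPKM, and the nearest pair outside it, POPTR_0028s00420 and POPTR_0028s00430 at 1007 bases, was listed at 0. Among the levels, POPTR_0001s28030.r1 entered at a mean of 1.001 FPKM and POPTR_0004s05810 stayed out at 0.988 FPKM.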

How the data were processed

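Leaf RNA was selected for poly(A) tails and sequenced as paired ends after library preparation with an Illumina TruSeq RNA kit, per the labels' protocols; use of strand is not stated. The authors deposited 1 FPKM value a transcript, as the file headers show. FastQC, TopHat and Cufflinks appear in the submitters' processing notes; for versions, genome build and annotation the sources used here give nothing. FPKM are estimates, so no count test was run, and depth is unknown.

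FPKM were summed by locus over its transcripts (112919 transcripts, 40537 loci). Loci averaging 1 FPKM or more in the 6 samples were fitted with limma 3.58.1 (R 4.3.3) on log2(FPKM + 1), which understates changes of low loci, with a mean-dependent prior variance and Benjamini-Hochberg adjustment over all 22835. The mean and the difference of the 2 loci of each adjacent pair were fitted in the same way over 1569 pairs, with the variance trend on the pair's mean level. The steps were tested on values simulated from each locus's mean and spread. Of 100 planted 2-fold locus changes 50 were called, of 100 planted 4-fold changes 83, and of 22635 unchanged loci 5. Of 50 planted 4-fold pair differences 48 were called. Locus changes were planted only above about 5 FPKM, and in fewer loci than the 1548 called in the data. Noise was drawn independently for each locus and sample. The rates hold for these settings and are not those of the test on the data.

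Pairs named by rule, among those with both loci tested, were pairs with both loci called, the 3 with the highest level in the lower locus, the 3 closest, those past the test of the difference, and those of the 3 largest called rises and falls. Other called loci, pairs with a changed mean, 1-sided pairs, the most abundant member and pairs at the edges were named after their values were seen. Lists based on product names were not applied, since 0 transcripts have a gene name. Members and lists were chosen with earlier results of these data known. Alternatives changed the pseudocount, filter, scaling, variance prior, replicate block, samples, adjacency, distance and transcripts. All drew on the same samples, so they are not independent of each other.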

Additional observations from a re-analysis of the deposited data

How the results depend on the processing

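The count of 9 called head-to-head loci became 3 with quantile normalization, 3 at distances up to 500 bases, 1 with the replicate number as a block, 17 when the fit was run over loci of at least 1000 and under 15000 bases only, and 1 to 8 with a sample left out. The share called was below that of all loci in each of these 18 settings, for example 0.195% against 1.23% with the block and 3.31% against 10.4% in the restricted fit. The single pair with both loci called was lost (count 0) with no filter, size factors, quantile normalization, constant prior variance, the block, distances up to 500 bases, known transcripts only, and without each sample. Pairs whose mean changed numbered 5 with quantile normalization, 5 with constant prior variance, 2 with the block, 1 with known transcripts and 1 to 8 with a sample left out. Pairs whose loci changed by different amounts numbered 1 with quantile normalization, 1 with the block, 0 at distances up to 500 bases, 0 with known transcripts and 0 to 3 with a sample left out. The restricted fit was chosen after seeing the data, and called POPTR_0015s05730.r2 as well (limma adjusted p = 0.0374).

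The same-direction share of 57.8% became 55.9% with a pseudocount of 5, 61.5% at a minimum of 5 FPKM, 55.8% with no filter, 54.9% with quantile normalization, 52.3% with known transcripts, and 53.2% to 56.9% with a sample left out. The same-strand share of 51.1% became 53.4% at a minimum of 5 FPKM, 52.6% with quantile normalization, 53.3% up to 500 bases, 47.7% with known transcripts, and 49.0% to 52.7% with a sample left out. The correlation of changes was 0.175 up to 500 bases, 0.0302 with known transcripts, 0.0409 without overlapping loci and 0.0841 to 0.173 with a sample left out; for same-strand pairs it was 0.0604 with no filter, 0.172 up to 500 bases and -0.0138 with known transcripts. It was higher in head-to-head than in same-strand pairs under 14 of 17 alternatives. These include the replicate block, which left both correlations unchanged. The head-to-head value was the lower without overlapping loci (0.0409 against 0.0798) and at a minimum of 5 FPKM (0.101 against 0.114). The share of pairs within 250 bases with both loci expressed was 58.6%, 23.6% and 37.5% at a minimum of 5 FPKM for head-to-head, same-strand and tail-to-tail pairs, 47.1%, 26.97% and 38.8% with known transcripts, and for tail-to-tail pairs 59.7% with adjacency over qualifying loci and 59.6% without overlapping loci. Where a value moved, the cause was not tested.

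Signs of log2 fold change reversed with known transcripts for POPTR_0012s10830.r1 (-1.003), POPTR_0001s27630.r1 (0.13), POPTR_0013s02750.r1 (-0.11) and POPTR_0017s13840.r1 (-0.21), and with quantile normalization for POPTR_0013s15730.r1 (0.16). With a sample left out, both signs occurred for POPTR_0001s27630.r1 (-0.0935 to 0.0284), POPTR_0001s27640.r1 (-0.0583 to 0.146), POPTR_0002s08680 (-0.0817 to 0.198), POPTR_0017s13830.r1 (-0.811 to 0.137) and POPTR_0017s13840.r1 (-0.0191 to 0.101); none of these was called. Over all tested loci, the correlations of the deviations of same-numbered samples were 0.025, -0.065 and 0.050 for numbers 1, 2 and 3. Differently numbered samples gave -0.141 to 0.137. FPKM summed over the members was highest in replicate 1 of both groups (25448 in control, 22281 in air-dried). With 3 samples a group, these values cannot decide whether the numbers pair the samples. Depth is unknown, and with 3 samples a group changes can be missed, 2-fold ones included.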
